A study of Mus musculus with 4 samples.

Results

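The feedback inhibitors of the mitogen-activated protein kinase (MAPK) pathways were followed in cultured mouse rib chondrocytes with and without a conditional deletion of Senp6, which encodes a peptidase that removes SUMO from proteins. The 10 genes were taken by name from the deposited gene tables: the dual-specificity phosphatases Dusp1, Dusp4, Dusp5, Dusp6 and Dusp10, the Sprouty genes Spry1, Spry2 and Spry4, and the Spred genes Spred1 and Spred2. All 10 were present among the 18298 genes with a read in at least 1 library, and all 10 passed the minimum of 10 counts in at least 2 libraries that left 14123 genes for testing. RNA-seq had been performed on 2 libraries labelled control (Senp6f/f, called WT in the labels) and 2 labelled mutant (Dermo1-Cre;Senp6f/f), all from primary cells of E18.5 embryos on a C57BL/6 background at passage 1. Both groups carried the floxed alleles, and only the mutant group carried Cre, so Cre and the deletion cannot be told apart. The Cre is driven from the Dermo1 (Twist2) locus, which is active in mesenchymal progenitors of cartilage and bone. The labels do not say which animals or how many went into each library, so p-values measure the spread between these libraries.

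MAPK pathways pass signals from the cell surface to transcription. Growth factor receptors act through RAS, RAF and MEK on ERK, while JNK and p38 respond mainly to stress and cytokines, and a MAPK is active only while it is phosphorylated in its activation loop. The phosphatases of the Dusp family remove those phosphates, and the Sprouty and Spred proteins act further upstream, between the receptor and RAF. Several of these inhibitors are themselves transcribed in response to ERK, JNK or p38, which closes a negative feedback loop. In cartilage, fibroblast growth factor signalling through ERK is known for restraining the proliferation and maturation of chondrocytes.

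Promoter sequences are shown for Dusp1 and Dusp5, members that were higher in both mutant libraries and whose window held motifs of factors that carry growth factor or stress signals. The sequences are from RefSeq (GRCm38.p6), which held 250 bases before and 50 bases after the start for 8 of the 10 members, all but Dusp4 and Spry4. Positions are counted from the RefSeq start, which differs from the GENCODE start of the coordinates given further on, and both stretches shown lie upstream of either start. In each line the bases are written 5′ to 3′ on the strand of the gene, and capitals mark the motifs.

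Dusp1, chr17:26508598-26508673, minus strand, -201 to -126 from the start: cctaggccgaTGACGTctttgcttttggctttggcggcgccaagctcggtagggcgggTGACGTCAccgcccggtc
Dusp5, chr19:53529053-53529104, plus strand, -92 to -41 from the start: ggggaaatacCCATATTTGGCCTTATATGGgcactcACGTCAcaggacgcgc

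Both strands were searched. The cyclic AMP response element TGACGTCA, the motif of CREB and ATF factors, lay in the Dusp1 window and in 1.79% of all 32851 promoters of the table. Its shorter form TGACGT, which also lies inside every TGACGTCA, was found in Dusp1, Dusp5 and Spred2, and in 7.51% of all promoters. In Dusp5 this shorter form stands on the opposite strand and is therefore printed as ACGTCA. In Spred2 it lies before the RefSeq start but inside the GENCODE transcript. Dusp5 alone held CArG boxes, the motif of serum response factor, with 2 of them side by side at -82 and -72 from the start, and 1.63% of all promoters held at least 1. The AP-1 motif TGANTCA (7.81% of all promoters) and the ETS motif CCGGAAG (8.86%) were in none of the 8 windows. Dusp6, Spry1 and Spry2, which were also higher in both mutant libraries, held none of these motifs, while the groups of Spred2 overlapped. A match describes letters in the reference, binding was not measured, and a link between motif and level was not tested.

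Depth and library quality were examined first. Over the genes tested, the counts summed to 21007449 in the shallowest and 30983806 in the deepest library. Senp6 was read 1125 and 2326 times in the control libraries and 1839 and 1126 times in the mutant libraries, and its RPKM overlapped between the groups (log2 fold change -0.56, SE 0.28, edgeR adjusted p = 0.410). This count covers the whole gene and was not split by exon, so it does not check the deletion of the floxed exons, and control and mutant are used here as the labels give them. Xist, the RNA of the inactive X chromosome, was read 11354 times in mutant replicate 2 and between 2 and 5 times in the other libraries, so the mutant libraries were of unlike sex. No control library had Xist at such a level, so sex and genotype are in part confounded. All 10 feedback genes are autosomal, but autosomal genes can differ by sex too, and the part of sex in their values was not tested. Across the 14123 genes, the root mean square log2 difference was 0.543 between the control libraries and 0.380 between the mutant libraries, and control replicate 2 lay 0.551 from mutant replicate 1. Over the 10 feedback genes, the same measure was 0.290 within the controls, 0.344 within the mutants, and between 0.486 and 0.976 for the 4 pairs of a control and a mutant library.

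Among these 10 genes, those that separated the groups were Dusp and Sprouty genes. Dusp1, Dusp4, Dusp5, Dusp6, Spry1, Spry2 and Spry4 had higher normalised counts in both mutant libraries than in both control libraries, with fitted folds from 1.15 for Spry1 to 2.70 for Dusp1. Spred1, Spred2 and Dusp10 overlapped between the groups. No feedback gene was lower in both mutant libraries. The 7 non-overlapping genes of 10 stand beside a background of 25.4% of all genes tested that were higher in both mutant libraries, and 22.8% that were lower. The 10 genes were chosen with earlier results of these data known, so this contrast is not independent of the data.

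None of the 10 genes passed an adjusted p of 0.05 in the quasi-likelihood test of edgeR, nor did any of the 14123 genes (0.0% called, smallest adjusted p = 0.0512 by edgeR). At an unadjusted p under 0.05, 6 of the 10 were higher and 0 were lower, beside 9.29% of all genes that were higher and 6.28% that were lower. DESeq2 called 3 of the 10, which were Dusp1, Dusp6 and Spry4, beside 3.07% of all genes called higher. The edgeR fit without a filter called 1 (Dusp6, beside 1.23%), and that with the replicate number as a block called 1 (Dusp1, beside 0.595%). Of the 10 fitted values, 9 were above 0, beside 51.4% of all genes. The median log2 fold change of the 10 genes was 0.52, and that of all genes tested was 0.01. An exact permutation test of 1 gene with 2 libraries against 2 cannot give a p below 0.333, so each call rests on the spread that edgeR or DESeq2 shares across genes.

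**Figure D1:**
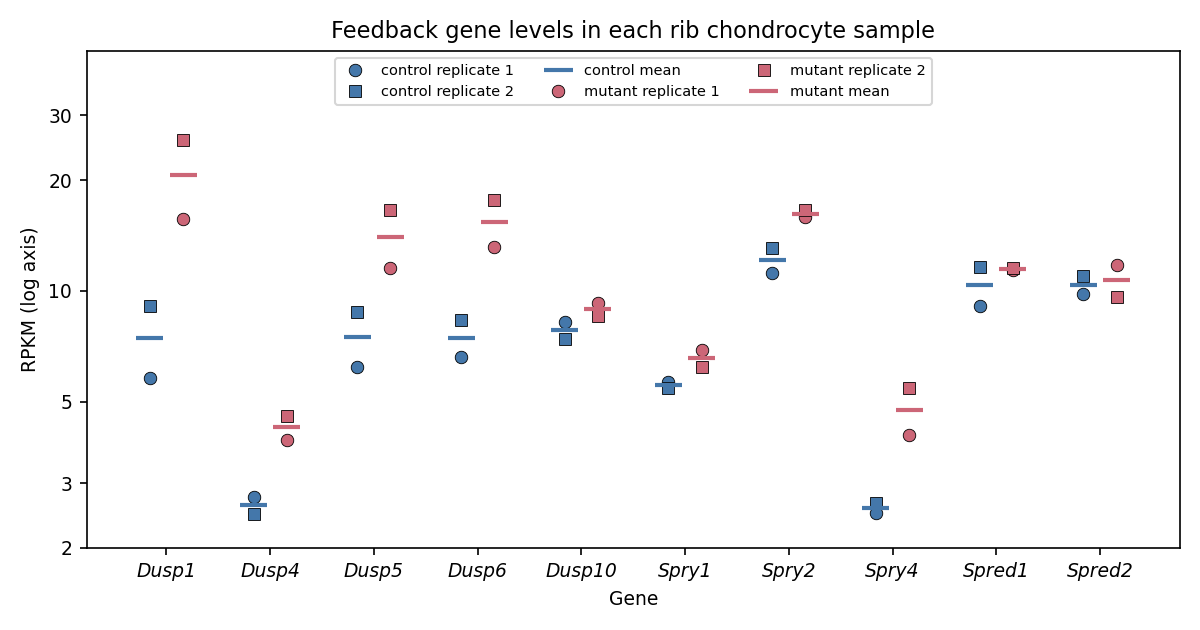
RPKM of the 10 feedback genes (log axis) in the 2 control and 2 mutant libraries, with circles for replicate 1, squares for replicate 2 and bars for the mean of each group. The mutant points of Dusp1, Dusp4, Dusp5, Dusp6 and Spry4 stand clear of the control points, while those of Spred1 and Spred2 overlap them in range.

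Dusp1 encodes a nuclear phosphatase that acts on p38, JNK and ERK and is induced within minutes by stress and serum. In the GENCODE annotation of GRCm38 it lies on the minus strand at chr17:26505590-26508519 and has 4 exons. It was counted 237 and 464 times in the control libraries and 951 and 1417 times in the mutant libraries. In RPKM, which scales the count by the length of the gene and by the depth of the library, the control libraries had 5.78 and 9.09 and the mutant libraries 15.7 and 25.7. The groups did not overlap, and the lower mutant library was 1.73 times the higher control library. The libraries of a group also differed from each other, by 1.57-fold in the controls and 1.63-fold in the mutants. The mean was 7.44 ± 2.35 RPKM in the controls and 20.7 ± 7.06 RPKM in the mutants (SD, n = 2 each). The log2 fold change was 1.43 (SE 0.29, 95% interval 0.75 to 2.12), with an adjusted p of 0.0985 by edgeR and of 0.000163 by DESeq2. It was above the log2 fold change of 96.8% of the genes tested.

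Dusp6 encodes the cytoplasmic phosphatase that is selective for ERK and is widely used as a readout of fibroblast growth factor signalling. It lies on the plus strand at chr10:99263231-99267488 and has 3 exons. Its RPKM was 6.59 and 8.32 in the control libraries (390 and 612 counts) and 13.2 and 17.7 in the mutant libraries (1147 and 1406 counts). The lower mutant library stood 1.58-fold above the higher control library. Group means were 7.46 ± 1.22 and 15.4 ± 3.21 RPKM (SD, n = 2 each), and the fitted fold was 2.01 (95% interval 1.47 to 2.74, SE 0.19 on the log2 scale). The adjusted p was 0.0917 by edgeR and 0.000939 by DESeq2.

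Dusp5, a nuclear phosphatase selective for ERK, lies on the plus strand at chr19:53529109-53542431 with 4 exons, and an antisense gene, AC137853.2, overlaps it. Control libraries had 6.22 and 8.78 RPKM (151 and 265 counts) and mutant libraries 11.5 and 16.6 RPKM (412 and 540 counts). The groups did not overlap, with a step of 1.31-fold between them, which was smaller than the 1.41-fold and 1.44-fold differences inside the control and mutant groups. Dusp5 had a log2 fold change of 0.86 (SE 0.25, 95% interval 0.26 to 1.46), with an adjusted p of 0.182 by edgeR and of 0.0743 by DESeq2. The length used for its RPKM was 1155 bases, the same as its coding sequence, whereas those of the other 9 members held between 848 and 4984 bases beyond the coding sequence. Its RPKM level is therefore on another footing than theirs, while its fold change does not depend on the length.

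Dusp4, an inducible nuclear phosphatase of ERK, JNK and p38, lies on the plus strand at chr8:34807297-34819894 with 4 exons. It had among the lowest levels of the 10, with 2.74 and 2.47 RPKM in the controls (140 and 157 counts) and 3.93 and 4.58 RPKM in the mutants (296 and 314 counts). Both mutant libraries were above both control libraries, and here the libraries within a group lay close together, at 2.61 ± 0.191 and 4.26 ± 0.456 RPKM (SD, n = 2 each). The log2 fold change was 0.66 (SE 0.21, 95% interval 0.16 to 1.16), with an adjusted p of 0.207 by edgeR and of 0.243 by DESeq2.

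Dusp10 differs from these phosphatases in its substrates, as it acts on JNK and p38 rather than ERK. It lies on the plus strand at chr1:184034381-184075636 with 4 exons. The control libraries had 8.25 and 7.39 RPKM and the mutant libraries 9.26 and 8.55 RPKM. The RPKM ranges were separated by 1.04-fold only, and they overlapped after TMM normalisation. The log2 fold change was 0.15 (SE 0.16), and its 95% interval from -0.23 to 0.52 held both no difference and a fold of up to 1.43 (edgeR adjusted p = 0.717).

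The Sprouty proteins are adaptors that restrain signalling from receptor tyrosine kinases to RAS and ERK. Spry4, on the minus strand at chr18:38586247-38601415 with 2 exons, had 2.49 and 2.65 RPKM in the controls (241 and 319 counts) and 4.05 and 5.44 RPKM in the mutants (579 and 709 counts). The lower mutant library was 1.53 times the higher control library, while the control libraries differed by 1.06-fold. Its log2 fold change was 0.84 (SE 0.19, 95% interval 0.39 to 1.30), with an adjusted p of 0.117 by edgeR and of 0.0219 by DESeq2. Gm27369 and Gm27804 are annotated on the opposite strand and overlap the span of Spry4.

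Spry2, on the minus strand at chr14:105891947-105896819 with 2 exons, was the Sprouty gene with the highest level. It had 11.2 and 13.1 RPKM in the controls and 15.8 and 16.6 RPKM in the mutants, without overlap and with a step of 1.21-fold. The log2 fold change was 0.38 (SE 0.14, 95% interval 0.04 to 0.71, edgeR adjusted p = 0.263). Spry1, on the plus strand at chr3:37640080-37644598 with 2 exons and Gm42922 on the opposite strand, had 5.64 and 5.44 RPKM in the controls and 6.89 and 6.21 RPKM in the mutants. Its groups were separated by 1.10-fold, and the log2 fold change was 0.20 (SE 0.17, 95% interval -0.21 to 0.61, edgeR adjusted p = 0.638). Overlaps with the genes opposite were taken over whole gene spans, introns included, and exons were not compared. Whether the counting used strand is not given in the sources used here. The counts of Spry1, Spry4 and Dusp5 may therefore hold reads of the genes opposite them, which was not tested.

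The Spred proteins suppress the activation of RAF by RAS, and Spred1 is known for bringing neurofibromin to the membrane. Spred1, on the plus strand at chr2:117121374-117182279 with 7 exons, had 9.12 and 11.6 RPKM in the controls and 11.4 and 11.6 RPKM in the mutants. Both mutant libraries lay between the 2 control libraries, and the log2 fold change was 0.11 (SE 0.14, 95% interval -0.24 to 0.46, edgeR adjusted p = 0.780). Spred2, on the plus strand at chr11:19924375-20024026 with 7 exons, had 9.82 and 11.0 RPKM in the controls and 11.8 and 9.60 RPKM in the mutants. Its highest and its lowest library were both mutant, and the log2 fold change was -0.0007 (SE 0.16, 95% interval -0.39 to 0.39, edgeR adjusted p = 0.999). The intervals of both genes leave room for a difference of about the size fitted for Spry2.

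**Figure D2:**
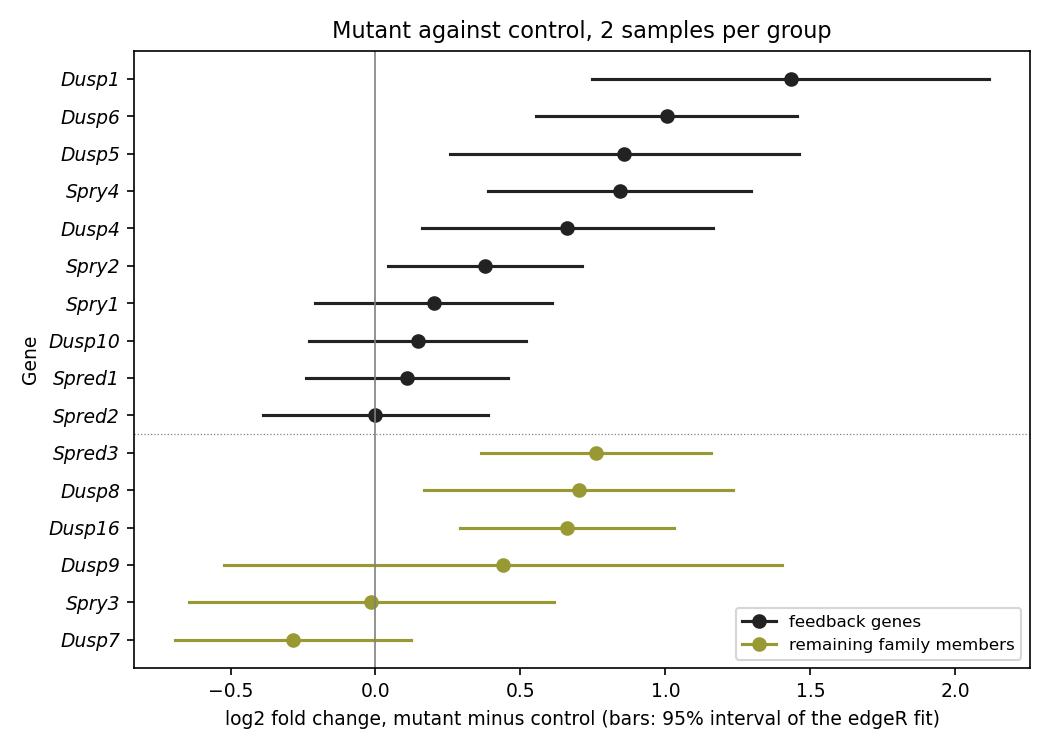
Log2 fold change, mutant minus control, of the 10 feedback genes (black) and of 6 further family members (olive), with bars for the 95% interval of the edgeR fit. The intervals of Dusp1, Dusp6, Dusp5, Spry4, Dusp4 and Spry2 lie above 0, and those of Spry1, Dusp10, Spred1 and Spred2 hold 0.

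Grouped by family, the Dusp members had a median log2 fold change of 0.86 (range 0.15 to 1.43), with 4 of 5 non-overlapping. The Sprouty members had a median of 0.38 (range 0.20 to 0.84), with 3 of 3 non-overlapping, and the Spred members had values of 0.11 and -0.0007, with 0 of 2 non-overlapping. Of all genes tested, 25.4% were non-overlapping and higher. The difference between families was not tested, and the split holds for these members only. Of the family members outside the list, Spred3, Dusp16, Dusp8 and the sparsely read Dusp2 were higher in both mutant libraries. Dusp7, Dusp9 and Spry3 overlapped between the groups. In order of level, Spry2 had the highest mean of the control group at 12.1 ± 1.36 RPKM, followed by Spred2 and Spred1, whose ranges overlapped. Dusp10, Dusp5, Dusp6 and Dusp1 came next with means from 7.44 to 7.82 RPKM and could not be ordered, since each overlapped its neighbour. Spry1 was below them, and Dusp4 and Spry4 were lowest at 2.61 and 2.57 RPKM and overlapped. In the mutant group, Dusp1 had the highest mean, but the ranges of Dusp1, Spry2, Dusp6, Dusp5, Spred1 and Spred2 overlapped from each to the next. Dusp10, Spry1 and then Spry4 with Dusp4 followed below.

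The 4 libraries were not spread alike for every member. In 5 of the 10, Dusp1, Dusp5, Dusp6, Spry2 and Spry4, control replicate 1 was lowest and mutant replicate 2 highest with no overlap of the groups, a pattern that 10.1% of all genes tested had. The fits were repeated with 1 library left out at a time. In them the number of feedback genes higher at an unadjusted p under 0.05, a count added after seeing the data, was 5 when control replicate 1 was omitted (beside 10.9% of all genes) and 6 when control replicate 2 was (beside 17%). Without mutant replicate 1 it was 4, beside 6.39%. Without mutant replicate 2, the library with Xist, it was 2 (Dusp1 and Dusp6), beside 3.9% of all genes. In that last fit the log2 fold change was 1.07 for Dusp1 and 0.80 for Dusp6, with an adjusted p of 0.0945 and 0.260 by edgeR, and the median over the 10 genes was 0.47. Where 1 library is left, it is assumed to vary like the other group.

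**Figure D3:**
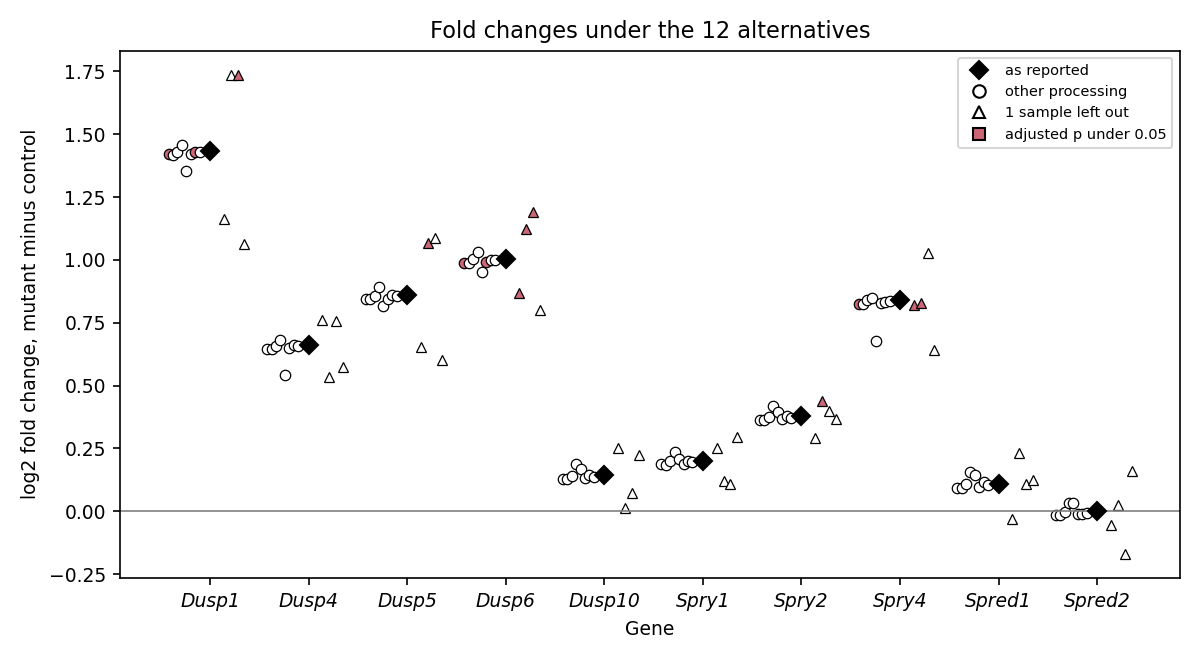
Log2 fold change of each feedback gene as reported (diamond), under 8 other ways of processing (circles) and with 1 library left out (triangles), filled where the adjusted p was under 0.05. Dusp1, Dusp6, Spry4, Dusp5 and Spry2 have filled points under some of the 12 alternatives, and the points of Spred1 and Spred2 lie on both sides of 0.

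Marker genes of cell types differed between the groups as well. Beside the counts below, 25.4% of all genes tested were higher in both mutant libraries and 22.8% were lower. The 8 chondrocyte markers examined (such as Col2a1, Acan and Sox9) were all lower in both mutant libraries, with summed levels of 926 and 927 RPKM in the controls and 494 and 613 RPKM in the mutants. None of them was at 0 in any library. Of 8 skeletal muscle markers (such as Myod1, Myog and Des), 6 were higher in both mutant libraries, and their sum was 92.7 and 31.9 RPKM in the controls and 155 and 174 RPKM in the mutants. Of 7 osteoblast markers, 5 were tested, of which 4 were lower and Spp1 was higher in both mutant libraries, while Bglap had no row in control replicate 1 and mutant replicate 1 and was taken as 0. The 6 macrophage and blood markers analysed summed to 16.7 and 14.6 RPKM in the controls and 6.63 and 10.3 RPKM in the mutants, and the 4 of them that were tested were all lower in both mutant libraries, with a median log2 fold change of -0.62. Hba-a1 had no row in several libraries. The 5 endothelial markers summed to 1.52 and 0.891 RPKM in the controls and 1.04 and 0.929 RPKM in the mutants. Kdr was higher and Tek lower in both mutant libraries, Pecam1 and Cdh5 overlapped, and Emcn was not tested. The 6 tendon and fibroblast markers summed to 7575 and 5360 RPKM in the controls and 5493 and 4202 RPKM in the mutants. Most of this sum was Col1a1, with 7253 and 4961 RPKM in the controls and 4828 and 3311 RPKM in the mutants. Col1a1 and Dpt were lower and Thy1 was higher in both mutant libraries, while Scx, Tnmd and Thbs4 overlapped. In bulk RNA, fewer cells of a type and less RNA per cell cannot be told apart. The part of these markers in the values of the feedback genes was not tested.

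The remaining MAPK phosphatases and Sprouty and Spred genes were examined next. None of these 7 passed an adjusted p of 0.05 by edgeR, and 3 were higher at an unadjusted p under 0.05 (beside 9.29% of all genes). In both mutant libraries 4 were higher (beside 25.4%), namely Spred3, Dusp16, Dusp8 and the sparsely read Dusp2. Dusp2 reached 10 counts only in the mutant libraries, so its separation came with the filter and is no support. The median log2 fold change of the 7, with Dusp2 included, was 0.66, so this median is no support either. Apart from Dusp2, the values ran from -0.28 for Dusp7 to 0.76 for Spred3. Spred3, unlike Spred1 and Spred2, had 4.85 and 6.36 RPKM in the controls and 9.16 and 10.4 RPKM in the mutants, without overlap. Its log2 fold change was 0.76 (SE 0.17), with an adjusted p of 0.114 by edgeR and of 0.0129 by DESeq2. Dusp16 and Dusp8, phosphatases of JNK and p38, had log2 fold changes of 0.66 (SE 0.15) and 0.70 (SE 0.22), with an adjusted p of 0.122 and 0.208 by edgeR. Dusp16 had 2.74 and 3.18 RPKM in the controls and 4.55 and 5.09 RPKM in the mutants, and Dusp8 had 1.14 and 1.54 RPKM against 2.09 and 2.40 RPKM, both without overlap.

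Other family members gave no such separation or were close to the detection limit. Dusp7, a cytoplasmic ERK phosphatase, had the highest mean of the 10 Dusp genes examined, with 32.2 and 25.4 RPKM in the controls and 25.6 and 23.2 RPKM in the mutants. It overlapped between the groups, as did Dusp9 and Spry3, and the log2 fold changes of the 3 genes were -0.28, 0.44 and -0.01 (edgeR adjusted p = 0.492, 0.662 and 0.985). Dusp2, a nuclear phosphatase best known from immune cells, was read 3 and 0 times in the controls and 10 and 11 times in the mutants, too few for a fold.

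A list of ERK output genes, transcription factors and other targets of growth factor signalling, was set beside the feedback genes. RNA levels do not measure the activity of ERK. Of 19 ERK output genes, 8 were higher and 0 lower at an unadjusted p under 0.05, beside 9.29% and 6.28% of all genes. In both mutant libraries 13 were higher and 0 lower, beside 25.4% and 22.8%, and the median log2 fold change was 0.32. None passed an adjusted p of 0.05 by edgeR, and 5 were called higher by DESeq2, beside 3.07% of all genes. The smallest p-values were those of Ier3, Ccnd1, Fos and Epha2. Ier3, an immediate-early gene tied to cell survival, had 14.5 and 21.9 RPKM in the controls and 37.3 and 54.9 RPKM in the mutants. Its log2 fold change was 1.30 (SE 0.25), with an adjusted p of 0.0943 by edgeR. Fos, the AP-1 subunit, had 2.82 and 2.51 RPKM against 4.75 and 5.90 RPKM, a log2 fold change of 0.95 (SE 0.22, edgeR adjusted p = 0.122). For Ccnd1, which encodes cyclin D1, the log2 fold change was 0.72 (SE 0.15, edgeR adjusted p = 0.101), and for Epha2, an ephrin receptor, it was 0.86 (SE 0.20, edgeR adjusted p = 0.125). All 4 genes were higher in both mutant libraries.

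The core of the RAS to ERK cascade lay closer to 0. Of the 19 genes analysed (Hras was not), 0 were higher and 1 was lower at an unadjusted p under 0.05, beside 9.29% and 6.28% of all genes. The median log2 fold change was 0.14, with 10 genes higher and 3 lower in both mutant libraries, beside 25.4% and 22.8%. The gene lower at that threshold was Ksr1, a scaffold that assembles RAF, MEK and ERK. It had 12.6 and 13.5 RPKM in the controls and 8.64 and 8.51 RPKM in the mutants, a log2 fold change of -0.64 (SE 0.13) with an adjusted p of 0.0985 by edgeR and of 0.0071 by DESeq2. Nras, Sos2 and Frs2, which lie upstream of RAF, had log2 fold changes of 0.32, 0.28 and 0.23 (edgeR adjusted p = 0.449, 0.407 and 0.466).

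Among 19 kinases and effectors of the JNK and p38 cascades, 3 were higher and 1 lower at an unadjusted p under 0.05, beside 9.29% and 6.28% of all genes, and the median log2 fold change was 0.11. The 3 higher genes were Mapk13, a p38 isoform, at 0.77, and Mapkapk3 and Mapkapk2, kinases activated by p38, at 0.38 and 0.31 (edgeR adjusted p = 0.281, 0.273 and 0.285). The lower gene was Map2k6, a kinase that activates p38, at -0.56 (edgeR adjusted p = 0.277).

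The receptor tyrosine kinases and their ligands had 4 of 22 genes higher and 4 lower at an unadjusted p under 0.05, beside 9.29% and 6.28% of all genes, and a median log2 fold change of -0.07. DESeq2 called 2 of them higher and 1 lower, beside 434 and 263 of the 14123 genes tested. Igf1, the insulin-like growth factor, had 29.4 and 16.7 RPKM in the controls and 8.15 and 7.68 RPKM in the mutants. Its log2 fold change was -1.59 (SE 0.28), with an adjusted p of 0.0873 by edgeR and of 7.8e-07 by DESeq2. The epidermal growth factor receptor ligands Hbegf and Ereg had log2 fold changes of 1.19 (SE 0.30) and 1.94 (SE 0.56), with an adjusted p of 0.144 and 0.177 by edgeR. By DESeq2 their adjusted p was 0.0160 and 0.287. Ereg had 0.564 and 2.24 RPKM in the controls and 4.22 and 6.88 RPKM in the mutants, so the libraries within each group were far apart too. Igf1r, the receptor of Igf1, had a log2 fold change of 0.51 (SE 0.13), with an adjusted p of 0.149 by edgeR and of 0.0440 by DESeq2. Of the fibroblast growth factor genes listed, Fgfr1, Fgfr2, Fgfr3 and Fgf10 were lower in both mutant libraries (beside 22.8% of all genes). Their log2 fold changes were -0.45, -0.58, -0.48 and -0.92 (edgeR adjusted p = 0.250, 0.319, 0.396 and 0.214). Fgf2 was higher in both (0.54, edgeR adjusted p = 0.575, beside 25.4%), and Fgfr4, Fgf1, Fgf7 and Fgf18 overlapped. The part of these genes in the level of Dusp6 was not tested.

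**Figure D4:**
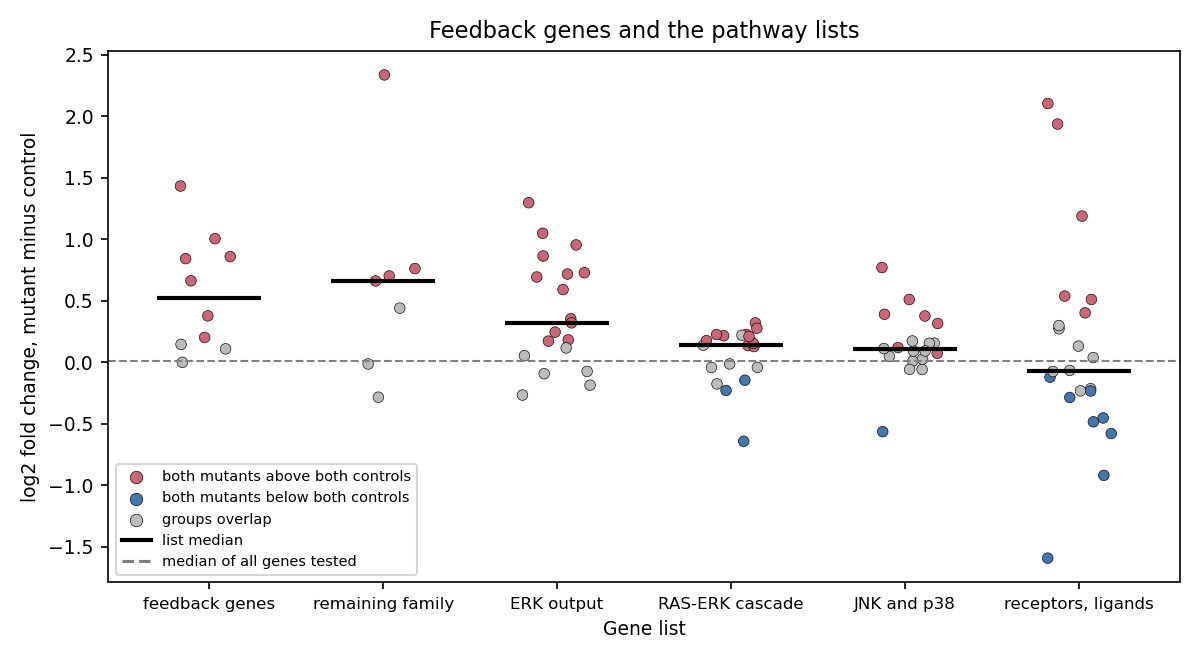
Log2 fold change, mutant minus control, of each tested gene in the feedback list and in 5 pathway lists, coloured by whether the 2 mutant libraries were both above, both below or among the control libraries, with black bars for list medians (0.52, 0.66, 0.32, 0.14, 0.11 and -0.07 from left to right). The dashed line is the median of all genes tested. The highest point of the remaining family is Dusp2, which had 0 to 11 counts per library and is included in the median of 0.66.

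To describe which pathway genes had a pattern most like each member, the Euclidean distance between centred log2 CPM (library-scaled counts) over the 4 libraries was taken among the 96 genes of the 5 pathway lists and the feedback list. Dusp1 was nearest to Ier3 (distance 0.171, beside a median of 1.42 to the pool), and both Dusp5 and Dusp6 were nearest to Epha2 (0.0883 and 0.168, beside medians of 0.868 and 0.940). Spry4 was nearest to Phlda1, an early response gene, at 0.213, and Dusp4 to its relative Dusp16 at 0.259. Almost as near were Epha2 to Spry4 (0.215) and Pdgfa, of the receptor and ligand list, to Dusp4 (0.262). The members with small fold changes were nearest to components of the kinase cascades, Spry1 to Map2k1, Spry2 to Mapk11 and Spred1 to Map2k4, at 0.0755, 0.0638 and 0.0331. Dusp10 was nearest to Srf (0.0698) and Spred2 to Atf2 (0.0990). The distance depends on the size of the differences, so members with small fold changes are near to other genes with small fold changes by construction, and over 4 libraries it carries no test.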

How the data were processed

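RNA of primary rib chondrocytes was sequenced by a service as 2 control and 2 mutant libraries. The authors deposited for each library the read count per gene without normalization, its RPKM and the coverage of the gene by reads in percent. The submitters' processing notes name mm9 and SAMtools, while the aligner, counting tool and strand setting are not given in the sources used here. No coordinate of the deposited files was used. Coverage was between 76.6 and 100 percent for the feedback genes in the deposited files and was not tested.

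Genes without a row in a library were given a count of 0. Mutant and control were compared in edgeR 4.0.16 under R 4.3.3 (quasi-likelihood, robust, TMM factors between 0.966 and 1.03). The 14123 genes that reached 10 counts in 2 or more libraries entered, Benjamini-Hochberg adjustment ran over all of them, and an adjusted p under 0.05 was called. RPKM was used as deposited. Intervals are 95% intervals of the fit. With counts of the feedback genes from 140 to 2231 per library, counting error alone was between 2.12% and 8.45% of a value.

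The alternatives were RLE and upper-quartile normalization, DESeq2 1.42.0, the unfiltered table, a minimum of 10 counts in each of the libraries, the replicate number as a block, limma 3.58.1 on log2(RPKM + 1) and log2(RPKM + 0.1), and leaving out each library in turn. The scripts were tested on simulated data. The feedback genes, pathway lists and marker lists were chosen with earlier results of these data known. Named genes were all feedback genes, all remaining family members, the 4 genes of each other pathway list with the smallest edgeR p, the nearest gene in pattern to each feedback gene, and Senp6. Single marker genes, the fibroblast growth factor receptors and ligands, Pdgfa and Xist were named as examples or checks after their values were seen. The replicates of a group were checked for a repeated library, and their counts differed by far more than sampling noise (chi-square over degrees of freedom 51.5 in the controls and 24.9 in the mutants).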

Additional observations from a re-analysis of the deposited data

How the results depend on the processing

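With 2 libraries per group, the number of genes called depended on the test. Across all genes edgeR called 0, while DESeq2 called 697, edgeR without a filter 286, and leaving out 1 library between 105 and 2740. Of the 10 feedback genes the count of 0 became 3 with DESeq2 and 1 without a filter, and with 1 library left out it lay between 0 (mutant replicate 2 omitted) and 4 (control replicate 2 omitted). Of the genes in the 5 pathway lists the count of 0 became 10 with DESeq2 and 2 without a filter, and ranged from 0 to 24. The cause of these differences was not tested. RLE and upper-quartile normalization, a minimum in every library and both limma fits called 0 in all 3 sets.

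A replicate block in edgeR gave 117 called genes, 1 feedback gene (Dusp1, adjusted p = 0.0396) and 2 pathway list genes. The replicate numbers share only a number in the labels, and the replicate differences of the groups did not go together (r = -0.042 over 14123 genes, which are no replicates).

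The median log2 fold change of the feedback genes was between 0.47 and 0.58 under all 12 alternatives. All fitted values of Dusp1, Dusp4, Dusp5, Dusp6, Dusp10, Spry1, Spry2 and Spry4 were above 0. Dusp6 was called under 5 alternatives, Dusp1 and Spry4 under 3 each, and Dusp5 and Spry2 under 1, which left out control replicate 2. With 1 library left out, Spred1 lay between -0.032 (control replicate 1 omitted) and 0.23, and Spred2 between -0.17 and 0.16 (mutant replicate 2 omitted). Spred2 also changed sign without control replicate 2 (0.02) and in the limma fits (0.033 with a pseudocount of 0.1 and 0.031 with 1).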
